A study of Homo sapiens with 9 samples.

Results

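The MHC class I antigen presentation genes described here were HLA-B, HLA-C, HLA-E, HLA-F, B2M, TAP1, TAP2, TAPBP and NLRC5. They were chosen by name, from the rows of the main chromosomes, and they were 9 of the 58735 genes in the count tables. All 9 were among the 16188 genes that passed the filter on low counts. RNA was sequenced in 9 libraries of MDA-MB-231, a long established line of triple-negative breast cancer cells, with 3 libraries in each of 3 groups. Vehicle cells had received DMSO. Erastin-R and RSL3-R, the study's names, were cells treated with erastin, an inhibitor of the cystine transporter system xc-, or with RSL3, an inhibitor of the lipid peroxidase GPX4. The labels name only the drug, and per the study these were the cells that outlived rising amounts of it. Whether the sequenced cells were stably resistant is not given in the sources used here. Both compounds induce ferroptosis, a cell death by lipid peroxidation. The 3 groups shared the cell line, and no gene was deleted or added in any of them according to the labels. The labels numbered the libraries of a group 1 to 3 without saying that they came from separate cultures, so the p-values measure the spread between these libraries, which may be technical. Drug doses and times at harvest were not used here.

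MHC class I molecules show peptides from inside the cell to CD8 T cells and natural killer cells. A heavy chain (HLA-B, HLA-C, HLA-E or HLA-F) folds with the small invariant chain beta-2-microglobulin, which B2M encodes. Peptides cut by the proteasome enter the endoplasmic reticulum through the transporter TAP, a dimer of TAP1 and TAP2, and tapasin (TAPBP) holds the empty class I molecule beside TAP until a fitting peptide is bound. NLRC5 is a transactivator that acts at the conserved promoter boxes of class I genes through the factors bound there. Interferons raise most of these genes through IRF and STAT factors.

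The promoters of these genes carry short letter patterns that DNA-binding factors read. In the RefSeq promoter table (GRCh38.p14, 250 bases before to 50 after a start), 7 of the 9 genes had an entry, and HLA-E and NLRC5 had none. Matches to 5 letter patterns were searched on both strands, and overlapping matches were kept. The interferon-stimulated response element (ISRE) was searched as GAAA, any 2 bases and GAAA, which 3.57% of all 35116 promoters in the table held. The interferon-gamma site (GAS) was searched as TTC, any 3 bases and GAA (7.66% of promoters), the kappaB site of NF-κB as GGG, any 2 bases and TTCCC (2.17%), the core of the cAMP response element (CRE) as TGACG (24.6%), and the Y box of the factor NF-Y as CCAAT (34.6%). The stretches of 160 bases from 200 to 41 bases before the start are shown for 4 genes, because HLA-B and HLA-C are neighbouring classical heavy chains, B2M is their shared partner on another chromosome, and TAP2 was the gene of the 9 that differed most between vehicle and erastin-R cells by adjusted p. Capitals mark the matches.
HLA-B: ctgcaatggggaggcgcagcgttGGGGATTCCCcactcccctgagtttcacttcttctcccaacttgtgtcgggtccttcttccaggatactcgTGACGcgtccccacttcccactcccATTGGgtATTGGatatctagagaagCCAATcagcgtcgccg
HLA-C: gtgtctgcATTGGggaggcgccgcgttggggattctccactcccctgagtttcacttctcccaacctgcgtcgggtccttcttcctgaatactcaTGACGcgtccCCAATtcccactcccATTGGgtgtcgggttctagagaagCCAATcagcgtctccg
B2M: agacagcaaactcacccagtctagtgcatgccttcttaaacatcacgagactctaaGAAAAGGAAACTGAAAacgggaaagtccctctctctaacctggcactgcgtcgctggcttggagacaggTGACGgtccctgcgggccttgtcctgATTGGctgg
TAP2: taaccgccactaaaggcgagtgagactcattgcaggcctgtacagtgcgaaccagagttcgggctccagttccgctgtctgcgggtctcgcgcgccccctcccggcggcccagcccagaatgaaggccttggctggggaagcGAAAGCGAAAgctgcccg
These stretches lie at chr6:31357220-31357379 on the minus strand for HLA-B, chr6:31272133-31272292 on the minus strand for HLA-C, chr15:44711317-44711476 on the plus strand for B2M and chr6:32838780-32838939 on the minus strand for TAP2. HLA-B and HLA-C each held a CRE core, at bases -106 to -102 and -105 to -101, and a pair of Y boxes at bases -81 to -77 and -56 to -52 in HLA-B and at -80 to -76 and -56 to -52 in HLA-C, whereas the kappaB pattern at bases -177 to -168 was matched in HLA-B alone of the 7 genes. B2M held a pair of overlapping ISRE matches from base -144 to -129, TAP1 a pair from -134 to -119 before its first listed start, and TAPBP a pair from -20 to -5. HLA-F held 1 ISRE match at bases -156 to -147 and TAP2 1 at bases -58 to -49. HLA-B and HLA-C had no match to this ISRE spelling within 250 bases of the start, and the GAS spelling was matched only before the second listed start of TAP1. A match describes letters and not a bound factor.

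**Figure D1:**
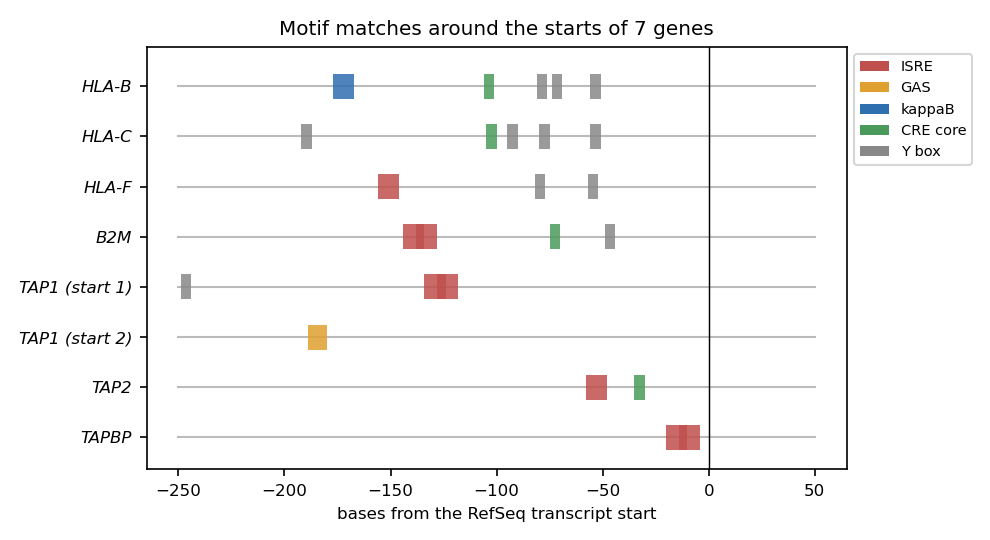
Matches to 5 letter patterns (coloured boxes) in the 300 bases around the RefSeq transcript starts of 7 genes; the horizontal axis gives bases from the start, and TAP1 has 2 listed starts. ISRE matches lie in B2M, HLA-F, TAP1, TAP2 and TAPBP. The CRE core and 2 Y boxes of HLA-B and HLA-C lie within 1 base of each other, whereas 1 more Y box of HLA-B and 2 more of HLA-C have no counterpart.

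The genes lie in the coordinates of GRCh38 (GENCODE release 29) as follows. In the MHC of chromosome 6 are HLA-F (chr6:29722775-29738528, plus strand), HLA-E (chr6:30489467-30494205, plus), HLA-C (chr6:31268749-31272130, minus), HLA-B (chr6:31269491-31357188, minus), TAP2 (chr6:32821833-32838780, minus), TAP1 (chr6:32845209-32853978, minus) and TAPBP (chr6:33299694-33314387, minus). B2M is at chr15:44711487-44718877 on the plus strand and NLRC5 at chr16:56989485-57083531 on the plus strand. Class I heavy chains are alike in sequence, which matters for counts of uniquely mapped reads. Of the 50-base words in the transcripts, 2.72% of those of HLA-B, 5.38% of HLA-C, 4.34% of HLA-E and 0.977% of HLA-F also occurred in transcripts of other genes, and none of those of B2M or NLRC5 did. The value was 0.880% for TAP1, 4.17% for TAPBP and 31.3% for TAP2. An overlapping gene model with 0 counts in all 9 libraries covers 32.3% of the exon bases of TAP2. The annotated span of HLA-B runs across most of HLA-C, but their exons share only 35 bases. Of the exon bases of HLA-F, 28.5% lie opposite other genes, among them HLA-F-AS1 with 18 to 41 counts per library. Of those of TAP1, 9.49% lie opposite PSMB8-AS1, which had 5 to 60 counts. Whether the counting used strand is not given in the sources used here. The cells carry their own HLA alleles, and reads were placed on the reference alleles, so levels of different HLA genes are less sure than the changes of 1 gene between groups.

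Total counts were 15405102 to 17273464 per library, so that even HLA-F, the lowest of the 9, was read from 27 to 98 counts per library. The line was checked by its markers: VIM was at 1274 to 1581 CPM and CD44 at 231 to 321 CPM, whereas ESR1 had 1 to 12 and PGR 0 to 2 counts per library. Leukocytes carry much class I and class II RNA, and 2 of 8 leukocyte markers, CD14 and PTPRC, passed the filter. Their summed level over all 8 was 4.26 to 5.80 CPM in vehicle, 1.59 to 3.28 CPM in erastin-R and 4.79 to 5.96 CPM in RSL3-R libraries, most of it CD14, and CD3E, MS4A1 and NKG7 had at most 4 counts in any library. The part of these transcripts in the results was not tested. CPM here are counts scaled to a common library size after TMM normalization. A gene passed the test when its adjusted p from edgeR, over the 16188 genes, was under 0.05, and it was called differentially expressed when the absolute log2 fold change was also at least 1.

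The question of each comparison with vehicle is what differs in the cells that outlived the drug. In erastin-R cells the classical heavy chains HLA-B and HLA-C, HLA-F, TAP2 and TAPBP were lower than in vehicle cells, HLA-E and NLRC5 were higher, and B2M and TAP1 did not pass the test. Thus 7 of the 9 genes passed, 2 higher and 5 lower, where 54% of all genes tested did (27.1% higher and 26.8% lower). TAP2 and HLA-F were differentially expressed, where 13.4% of all genes were. In RSL3-R cells HLA-E, B2M and TAPBP were higher and TAP2 was lower, so 4 of 9 passed, where 48.7% of all genes did (23.8% higher and 24.9% lower). None of the 9 was differentially expressed there by edgeR, where 10.1% of all genes were. At an unadjusted p under 0.05, 4 passed, and DESeq2 also called 4 at an adjusted p under 0.05 and 0 with the fold change. In the direct comparison all 9 differed, 7 higher and 2 lower in RSL3-R than in erastin-R cells, where 49.2% of all genes passed (22.3% higher and 26.9% lower), and HLA-F was differentially expressed, where 10.3% of all genes were. The CPM ranges of the groups did not overlap for 7 of the 9 genes in erastin-R against vehicle (57.9% of all genes), for 4 in RSL3-R against vehicle (61.9%) and for 8 in the direct comparison (55.2%). Both comparisons with vehicle use the same 3 vehicle libraries. The leukocyte markers moved too: CD14 was lower in erastin-R cells (-1.23 ± 0.22, adjusted p = 0.000316, log2 scale) and gave -0.23 ± 0.20 in the RSL3-R comparison (adjusted p = 0.367). PTPRC, at 3 to 24 counts, gave -0.29 ± 0.57 for erastin-R (adjusted p = 0.685) and was higher for RSL3-R (1.67 ± 0.46, adjusted p = 0.00818). The sum without CD14 was 0.803 to 1.73 CPM in vehicle, 0.318 to 1.55 CPM in erastin-R and 2.18 to 2.57 CPM in RSL3-R libraries.

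**Figure D2:**
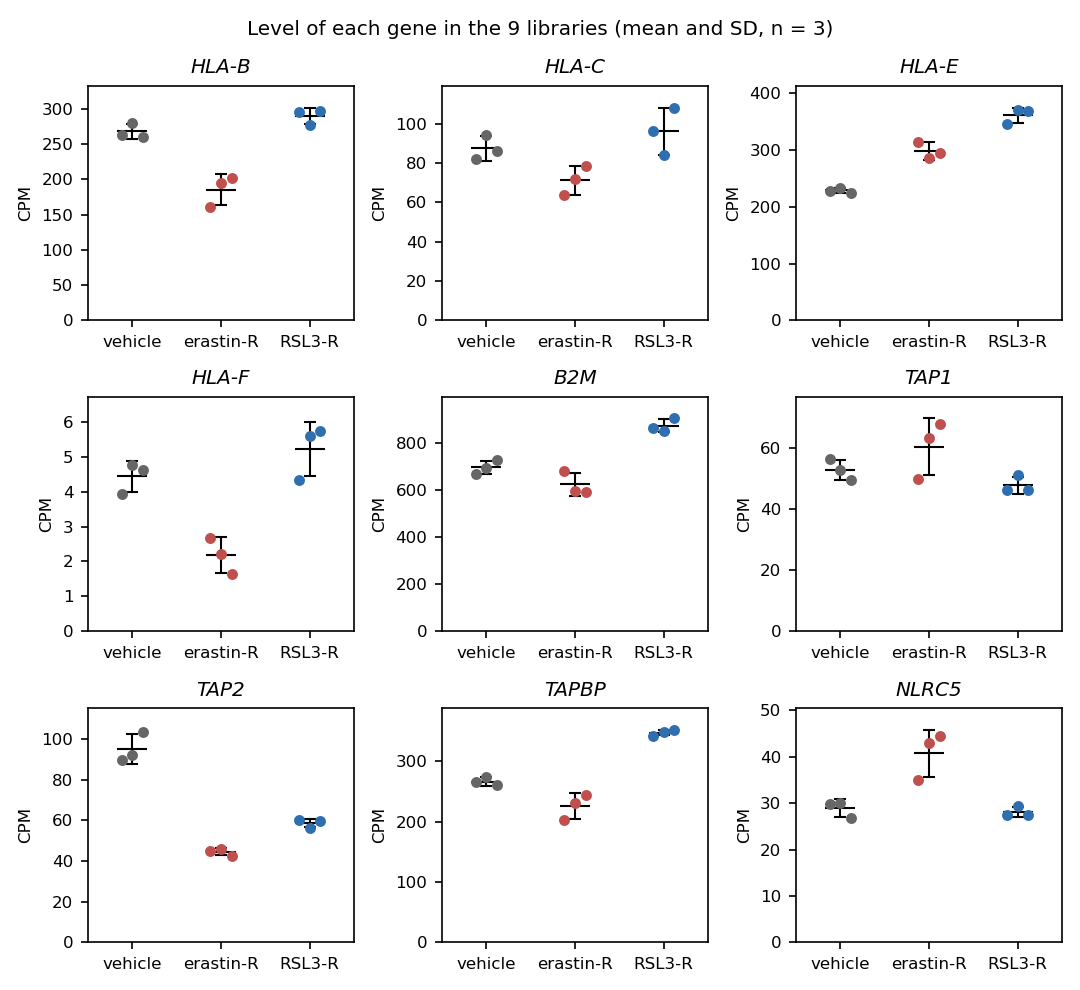
CPM of each of the 9 genes (vertical axes from 0) in the vehicle, erastin-R and RSL3-R libraries; points are libraries, horizontal marks the group mean and bars the SD (n = 3). The erastin-R points of HLA-B, HLA-C, HLA-F, TAP2 and TAPBP lie below all vehicle points, and those of HLA-E and NLRC5 above.

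Among the heavy chains, HLA-B, which presents peptides to CD8 T cells, had the highest level of the 4 in vehicle cells. HLA-B was at 263, 281 and 260.4 CPM in the vehicle libraries, 161, 195 and 202 CPM in the erastin-R libraries and 296, 277 and 296 CPM in the RSL3-R libraries. All 3 erastin-R libraries lay below every other library, and the vehicle and RSL3-R ranges overlapped. Against vehicle, HLA-B fell by 30.7% in erastin-R cells (log2 fold change -0.53 ± 0.08, ± SE, adjusted p = 6.12e-05), and RSL3-R cells had a log2 fold change of 0.11 ± 0.08 (adjusted p = 0.25). HLA-B was 56.0% higher in RSL3-R than in erastin-R cells (log2 fold change 0.64 ± 0.08, adjusted p = 1.61e-05). The RSL3-R difference from vehicle passed when only these 2 groups were fitted (adjusted p = 0.0234) and without erastin-R replicate 1 (0.0292). These are bulk libraries, in which fewer cells with a transcript and less of it per cell cannot be told apart.

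HLA-C, a classical heavy chain and also a main ligand of killer cell immunoglobulin-like receptors, had the same order of groups with smaller differences. Its levels were 81.9, 94.1 and 86.3 CPM in vehicle, 63.5, 71.7 and 78.4 CPM in erastin-R and 96.4, 83.9 and 108 CPM in RSL3-R libraries. The erastin-R range lay under the vehicle range by a narrow gap, and the RSL3-R range took in part of the vehicle range. For erastin-R the log2 fold change was -0.30 ± 0.10 (adjusted p = 0.0198). Without vehicle replicate 2, the highest vehicle library, the adjusted p was 0.0863 and the call was lost. For RSL3-R it was 0.14 ± 0.10 (adjusted p = 0.263), and RSL3-R exceeded erastin-R cells with a log2 fold change of 0.43 ± 0.10 (adjusted p = 0.00223).

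HLA-E is a non-classical heavy chain of little variation that binds leader peptides of other class I chains and is read by the receptor NKG2A on natural killer and T cells. It moved against HLA-B and HLA-C in erastin-R cells. HLA-E was at 227, 234 and 225 CPM in vehicle, 315, 285 and 295 CPM in erastin-R and 345, 369 and 368 CPM in RSL3-R libraries. No 2 groups overlapped, with vehicle lowest and RSL3-R highest. The level was 30.4% higher than vehicle in erastin-R cells (log2 fold change 0.38 ± 0.06, adjusted p = 7.5e-05) and 57.9% higher in RSL3-R cells (0.66 ± 0.06, adjusted p = 5.63e-07). The difference between the treated groups was 0.28 ± 0.06 (adjusted p = 0.00122).

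HLA-F, another non-classical heavy chain, which can reach the surface as an open form without peptide, was present at a low level. Its counts were 66, 77 and 75 in vehicle, 45, 35 and 27 in erastin-R and 67, 90 and 98 in RSL3-R libraries, or 3.93, 4.76 and 4.63 CPM, 2.68, 2.23 and 1.64 CPM and 4.32, 5.59 and 5.73 CPM. Every erastin-R library was below every library of the other groups. Against vehicle, HLA-F gave -1.02 ± 0.21 for erastin-R (adjusted p = 0.000984) and 0.23 ± 0.19 for RSL3-R on the log2 scale (adjusted p = 0.33). Between the treated groups it was 1.25 ± 0.21 (adjusted p = 0.00021), the largest difference of any of the 9 genes. HLA-F lay close to the limit of 1 in erastin-R cells: it passed the test in all 15 alternative fits, with log2 fold changes of -1.20 to -0.85, but fell short of the limit with quantile normalization and without vehicle replicate 2, vehicle replicate 3 or erastin-R replicate 3.

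Because reads of like genes can be divided in different ways, the 4 heavy chains were also summed. The sum was 576, 613 and 576 CPM in vehicle, 542, 553 and 576 CPM in erastin-R and 742, 736 and 778 CPM in RSL3-R libraries. The erastin-R range reached into the vehicle range at its top, and the RSL3-R range lay above both. The mean of the sum was 588 ± 21.4 CPM (SD) in vehicle and 557 ± 17.6 CPM in erastin-R cells, in which HLA-E was higher and the other parts lower. FPKM values, which also divide by gene length, allow shares within a library. The length is that of all annotated exon bases of a gene, which can exceed the length of its transcripts. Orders, shares and ratios between genes are therefore less sure than their differences between groups. HLA-E made up 38.3 ± 0.719% of the summed FPKM of the 4 genes in vehicle, 52.8 ± 3.93% in erastin-R and 47.4 ± 2.02% in RSL3-R libraries. HLA-B made up 43.8 ± 0.287%, 32.0 ± 2.96% and 37.1 ± 1.11%. HLA-E thus took the place of HLA-B as the gene with the highest FPKM among these 4 in both treated groups. These shares are descriptions with no test, and they leave out other class I genes.

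B2M, the invariant light chain of every classical class I molecule, had the highest mean level of the 9 transcripts in every group. It was at 670.4, 695 and 728 CPM in vehicle, 684, 597 and 595 CPM in erastin-R and 866, 854 and 907 CPM in RSL3-R libraries. The RSL3-R libraries lay above all others, while erastin-R replicate 1 lay within the vehicle range and the other two below it. B2M was 25.5% higher in RSL3-R than in vehicle cells (log2 fold change 0.33 ± 0.06, adjusted p = 0.000781) and 40.0% higher than in erastin-R cells (0.49 ± 0.06, adjusted p = 3.36e-05). For erastin-R the value of -0.16 ± 0.06 stood at the threshold (adjusted p = 0.0511). It passed in 5 of 15 alternatives, among them without vehicle replicate 1 (adjusted p = 0.0477) and without erastin-R replicate 1 (-0.23, adjusted p = 3.39e-05), and over all 15 the adjusted p was 3.39e-05 to 0.174. The summed FPKM of the 4 heavy chains over that of B2M was 1.75 ± 0.0981 in vehicle, 1.86 ± 0.193 in erastin-R and 1.78 ± 0.00214 in RSL3-R libraries, and the 3 ranges overlapped. The size of this ratio rests on the annotated lengths, which was 6079 bases for B2M.

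**Figure D3:**
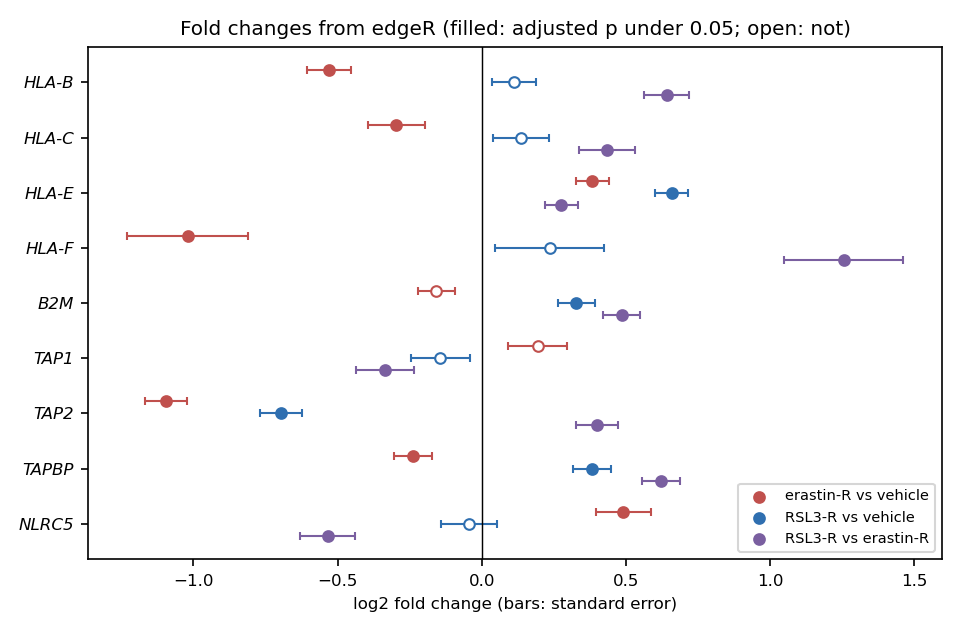
Log2 fold changes of the 9 genes (horizontal axis) in erastin-R against vehicle (red), RSL3-R against vehicle (blue) and RSL3-R against erastin-R (purple); bars are standard errors, filled points had an adjusted p under 0.05 and open points did not. TAP2 is the only gene on the left of 0 in both comparisons with vehicle with filled points, and TAPBP the only one with filled red and blue points on opposite sides.

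Of the 2 subunits of the TAP transporter, TAP2 was lower than vehicle in both treated groups, and TAP1 passed the test against vehicle in neither. TAP2 was at 89.6, 92.2 and 104 CPM in vehicle, 44.8, 46.1 and 42.7 CPM in erastin-R and 60.2, 56.3 and 59.7 CPM in RSL3-R libraries. The 3 groups did not overlap, with erastin-R lowest. TAP2 fell by 53.2% in erastin-R cells (log2 fold change -1.09 ± 0.07, adjusted p = 4.25e-08) and fell by 38.3% in RSL3-R cells (-0.70 ± 0.07, adjusted p = 2.72e-06). The treated groups differed by 0.40 ± 0.07 (adjusted p = 0.000504). TAP1 was at 56.2, 52.7 and 49.4 CPM in vehicle, 49.9, 63.2 and 67.8 CPM in erastin-R and 46.2, 51.0 and 46.2 CPM in RSL3-R libraries. Its 3 ranges overlapped, and erastin-R replicate 1 lay well under the other erastin-R libraries.

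For TAP1 the comparison of erastin-R with vehicle gave 0.19 ± 0.10 (adjusted p = 0.122) and that of RSL3-R gave -0.14 ± 0.10 (adjusted p = 0.266). Without erastin-R replicate 1 the first was 0.31 with an adjusted p of 3.51e-04. TAP1 was lower in RSL3-R than in erastin-R cells (log2 fold change -0.34 ± 0.10, adjusted p = 0.0137), a call that was lost without erastin-R replicate 3 (0.0692), RSL3-R replicate 1 (0.085) or RSL3-R replicate 3 (0.0877) and with quantile normalization (0.103). As TAP works as a dimer, the ratio of its subunits was also taken within each library. TAP1 FPKM over TAP2 FPKM was 0.833, 0.760 and 0.634 in vehicle, 1.48, 1.82 and 2.11 in erastin-R and 1.02, 1.20 and 1.03 in RSL3-R libraries. TAP2 thus had the higher FPKM in every vehicle library and TAP1 in every treated library, and the 3 ranges did not overlap. The ratio is a description with no test. An overlapping gene model covers 32.3% of the TAP2 exon bases, and whether reads there were counted is not given. The side of 1 on which a ratio fell is therefore less sure than its differences between groups.

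TAPBP encodes tapasin, the chaperone that bridges class I and TAP and favours tightly bound peptides. It was at 265, 274 and 259.6 CPM in vehicle, 202, 231 and 243 CPM in erastin-R and 342, 348 and 351 CPM in RSL3-R libraries. The groups did not overlap, with vehicle in the middle. TAPBP fell by 15.2% in erastin-R cells (log2 fold change -0.24 ± 0.07, adjusted p = 0.00764) and was 30.4% higher in RSL3-R cells (0.38 ± 0.07, adjusted p = 0.000282). The difference between the treated groups was 0.62 ± 0.07 (adjusted p = 5.16e-06). It was the only 1 of the 9 that passed the test in opposite directions against vehicle, as 3.94% of all genes did.

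NLRC5, the class I transactivator, did not follow the classical heavy chains. It was at 29.9, 30.1 and 26.8 CPM in vehicle, 34.9, 42.9 and 44.4 CPM in erastin-R and 27.5, 29.4 and 27.4 CPM in RSL3-R libraries. The erastin-R libraries lay above all others, and the vehicle and RSL3-R ranges overlapped. NLRC5 was 40.5% higher in erastin-R cells (log2 fold change 0.49 ± 0.10, adjusted p = 0.000672). HLA-E was also higher there, HLA-B, HLA-C, HLA-F, TAP2 and TAPBP were lower, and B2M and TAP1 did not pass the test. The RSL3-R cells gave -0.04 ± 0.10 (adjusted p = 0.735), with a sign that turned under 3 alternatives without passing the test. From erastin-R to RSL3-R cells NLRC5 fell by 31.0% (log2 fold change -0.54 ± 0.10, adjusted p = 0.000424).

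By FPKM, the order of the 9 genes in vehicle cells was B2M (114 ± 4.89 FPKM, SD), HLA-B (86.9 ± 3.49), HLA-E (76.0 ± 1.41), TAPBP (52.1 ± 1.33), HLA-C (34.5 ± 2.42), TAP2 (14.7 ± 1.19), TAP1 (10.9 ± 0.676), NLRC5 (2.31 ± 0.143) and HLA-F (1.01 ± 0.101). No neighbours in this order overlapped over the 3 libraries. In erastin-R cells HLA-E (98.7 ± 4.74 FPKM) stood second, beside B2M (101 ± 7.83), and these overlapped. HLA-B followed at 60.02 ± 7.30 FPKM, and TAP1 (12.4 ± 1.96) came before TAP2 (6.87 ± 0.244). In RSL3-R cells the order was that of erastin-R cells, with B2M at 143 ± 4.89 FPKM, HLA-E at 120.4 ± 4.51, HLA-B at 94.2 ± 3.80, TAP1 at 9.87 ± 0.557 and TAP2 at 9.12 ± 0.341, and no neighbours overlapped. The order of TAP1 and TAP2 within a group has the limit given above for their ratio. All of these orders rest on annotated exon bases and not on transcript lengths, so the place of B2M beside HLA-E is unsure.

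**Figure D4:**
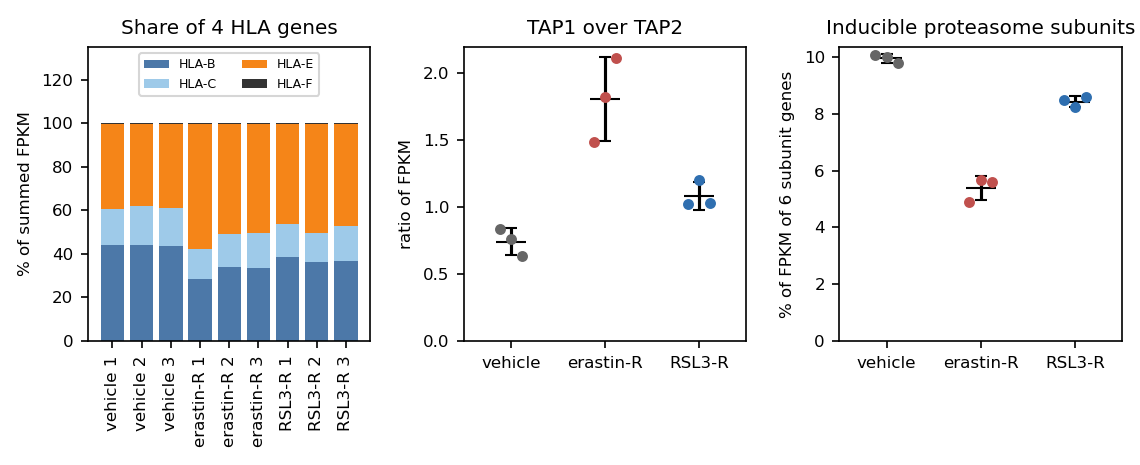
Left, share of HLA-B, HLA-C, HLA-E and HLA-F in the summed FPKM of these 4 genes in each library (%); middle, TAP1 FPKM over TAP2 FPKM; right, share of the 3 inducible proteasome subunits in the FPKM of 6 subunit genes (%), with points for libraries and mean and SD (n = 3). The HLA-E share is largest in erastin-R libraries, the TAP ratio is under 1 only in vehicle libraries, and the inducible subunit share is lowest in erastin-R libraries.

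The genes that make and trim the peptides were mostly lower in both treated groups. The counts over lists given from here on stand beside the 54% (erastin-R) and 48.7% (RSL3-R) of all genes that passed against vehicle. In the immunoproteasome, inducible catalytic subunits replace those of the constitutive proteasome, and the PA28 activator (PSME1 and PSME2) caps it. All 5 genes of this list passed the test as lower in erastin-R cells. Their median was -0.90 on the log2 scale, where that of all genes was -0.004. All 5 were also lower in RSL3-R cells (median -0.60, all genes 0.005), though 3 passed without vehicle replicate 1 or RSL3-R replicate 3. PSMB9 was at 18.3, 18.3 and 18.1 CPM in vehicle, 6.49, 9.54 and 8.63 CPM in erastin-R and 9.22, 8.76 and 11.9 CPM in RSL3-R libraries, with all treated libraries below the vehicle range. Its log2 fold changes were -1.15 ± 0.15 (adjusted p = 1.94e-05) and -0.87 ± 0.15 (adjusted p = 0.00022). PSMB10 had log2 fold changes of -1.07 ± 0.21 and -0.67 ± 0.20 (adjusted p = 0.000603 and 0.013), and 34.8% of its exon bases also belong to a gene of 3 to 26 counts. PSME2 had log2 fold changes of -0.75 ± 0.06 and -0.60 ± 0.06 (adjusted p = 2.48e-07 and 1.97e-06). PSMB8, the remaining inducible catalytic subunit, was chosen after its values were seen, and it had log2 fold changes of -0.90 ± 0.07 and -0.56 ± 0.07 (adjusted p = 3.09e-07 and 2.54e-05).

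The constitutive subunits that these replace, PSMB5, PSMB6 and PSMB7, were compared in the same way. In erastin-R cells only PSMB7 passed (-0.16, adjusted p = 0.0224), a call that was lost with no filter on low counts, with only these 2 groups fitted and without vehicle replicate 1 or erastin-R replicate 2, and 2 passed without erastin-R replicate 1. PSMB5 and PSMB6 had log2 fold changes of 0.02 and 0.07. In RSL3-R cells all 3 were lower, with log2 fold changes of -0.47, -0.38 and -0.28 (adjusted p = 6.64e-05, 0.000253 and 0.000772). The inducible subunits PSMB8, PSMB9 and PSMB10 made up 10.1, 10.0 and 9.79% of the FPKM of all 6 subunit genes in vehicle libraries, 4.90, 5.67 and 5.59% in erastin-R libraries and 8.49, 8.23 and 8.59% in RSL3-R libraries. The 3 groups did not overlap. The share was lower in erastin-R than in RSL3-R cells, in which both kinds of subunit were below vehicle.

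**Figure D5:**
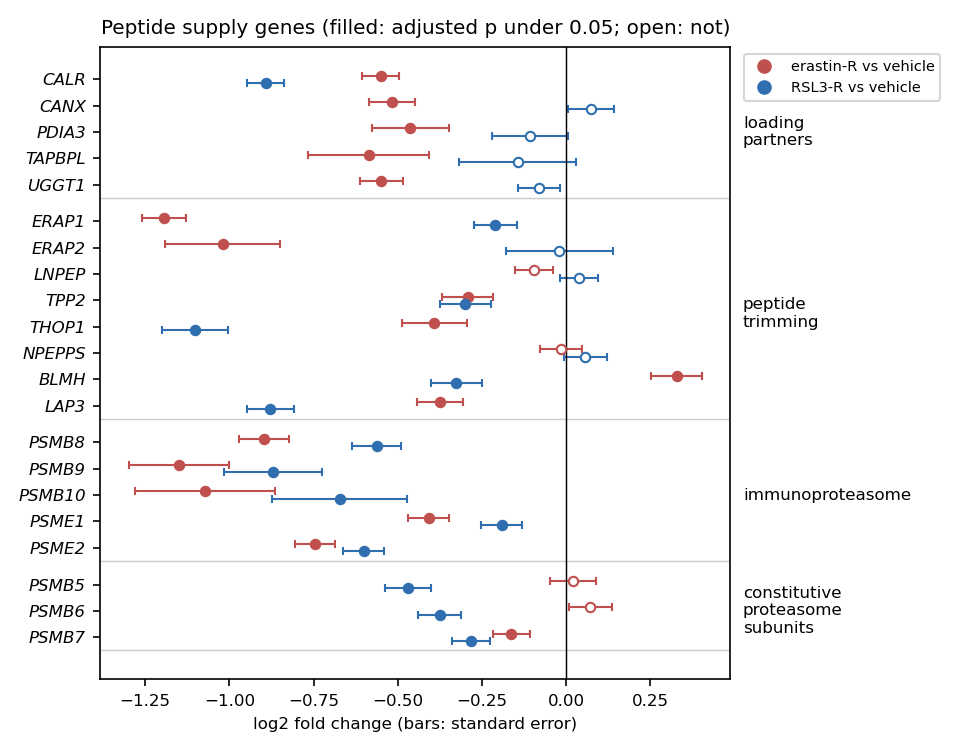
Log2 fold changes (horizontal axis) of loading partners, trimming peptidases, immunoproteasome genes and constitutive proteasome subunits in erastin-R (red) and RSL3-R (blue) against vehicle; bars are standard errors, filled points had an adjusted p under 0.05 and open points did not. All red points of the loading partners and the immunoproteasome are filled and left of 0, and BLMH is the only gene with a filled red point right of 0.

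ERAP1 and ERAP2 are the aminopeptidases that trim peptides to length inside the endoplasmic reticulum. ERAP1 was at 116, 118 and 122 CPM in vehicle, 56.1, 49.4 and 50.3 CPM in erastin-R and 102, 103 and 103 CPM in RSL3-R libraries. ERAP1 was lower in both, with -1.19 ± 0.06 in erastin-R (adjusted p = 7.18e-09) and -0.21 ± 0.06 in RSL3-R (adjusted p = 0.0131). ERAP2 was lower in erastin-R cells (log2 fold change -1.02 ± 0.17, adjusted p = 0.000186) and gave -0.02 ± 0.16 in the RSL3-R comparison (adjusted p = 0.928). Both peptidases were higher in RSL3-R than in erastin-R cells, with log2 fold changes of 0.98 and 0.999 (adjusted p = 6.42e-08 and 0.000275). The cytosolic peptidase THOP1, which destroys many peptides before they reach TAP, was lower in both, with -0.39 ± 0.10 for erastin-R and -1.10 ± 0.10 for RSL3-R (adjusted p = 0.00343 and 7.04e-07). Over the 8 trimming genes, 1 passed as higher and 5 as lower in erastin-R cells, and 5 passed in RSL3-R cells, each as lower.

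All 5 chaperones and enzymes that fold or load class I beside tapasin were lower in erastin-R cells, with log2 fold changes of -0.59 to -0.46. In RSL3-R cells 1 of 5 passed the test, and 2 passed with only these 2 groups fitted and without erastin-R replicate 1. The lectin chaperone CALR, which binds the folded heavy chain in the loading complex, was at 990.3, 963 and 908 CPM in vehicle, 641, 637 and 675 CPM in erastin-R and 503, 514 and 524 CPM in RSL3-R libraries. It was lower in both treated groups (log2 fold changes of -0.55 ± 0.05 and -0.89 ± 0.05, adjusted p = 1.61e-06 and 1.82e-08), and lower in RSL3-R than in erastin-R cells (-0.34, adjusted p = 0.000161). CANX, the membrane-bound relative of CALR that receives new heavy chains, had log2 fold changes of -0.52 ± 0.07 against vehicle in erastin-R (adjusted p = 2.42e-05) and 0.07 ± 0.07 in RSL3-R libraries (adjusted p = 0.392). UGGT1, the glucosyltransferase that checks folding, had log2 fold changes of -0.55 ± 0.06 and -0.08 ± 0.06 (adjusted p = 6.83e-06 and 0.315).

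A list of 16 regulators of class I genes held transcription factors and EZH2, which counts among the lower genes in both comparisons. Of the 16, 3 were higher and 6 lower in erastin-R cells, and 5 higher and 6 lower in RSL3-R cells. The shares of all genes that passed were 54% and 48.7%. The RSL3-R count of 11 was 5 without vehicle replicate 2 and 7 without RSL3-R replicate 2 or 3. IRF1, an activator through ISRE-like sites, was at 31.3, 28.8 and 31.2 CPM in vehicle, 15.1, 19.2 and 18.5 CPM in erastin-R and 28.3, 30.2 and 29.7 CPM in RSL3-R libraries. It was lower in erastin-R cells (-0.79 ± 0.10, adjusted p = 1.23e-05), and the RSL3-R comparison gave -0.05 ± 0.09 (adjusted p = 0.697). RFXAP, a subunit of the RFX complex on the X box of class I and class II promoters, was lower in the erastin-R comparison (-0.77 ± 0.16) and higher in the other (0.44 ± 0.15, adjusted p = 0.00106 and 0.0243). EZH2, the methyltransferase of Polycomb that can silence class I genes, was lower in both (log2 fold changes of -0.79 ± 0.07 and -0.96 ± 0.07, adjusted p = 4.56e-07 and 8.5e-08).

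Interferon signals reach these genes through receptors, JAK kinases and STAT factors. A list of 12 genes held such components together with SOCS1 and SOCS3, which are inhibitors of this signal. Of the 12, 6 were higher and 1 lower in erastin-R cells, and 3 were higher and 4 lower in RSL3-R cells. The shares of all genes that passed were 54% and 48.7%. The inhibitor SOCS3 was among the higher genes in erastin-R cells (0.25 ± 0.10, adjusted p = 0.0372). The erastin-R count of 7 was 4 with only these 2 groups fitted and without vehicle replicate 1 or 2. The RSL3-R count of 7 was 4 with DESeq2, with the replicate block and without vehicle replicate 2 or 3 or any 1 of the RSL3-R libraries. The type I receptor chain IFNAR1 was at 50.4, 58.7 and 61.7 CPM in vehicle, 23.2, 20.3 and 23.1 CPM in erastin-R and 49.6, 48.4 and 47.5 CPM in RSL3-R libraries. Its log2 fold changes were -1.36 ± 0.09 (adjusted p = 3.87e-08) and -0.23 ± 0.08 (adjusted p = 0.0361). The other chain, IFNAR2, was at under 2 CPM in every library, with -0.76 ± 0.38 and -1.04 ± 0.40 (adjusted p = 0.11 and 0.0433). IRF9, the DNA-binding part of the interferon factor that acts on the ISRE, was higher in erastin-R cells (log2 fold change 0.91 ± 0.19, adjusted p = 0.00127) and had -0.20 ± 0.21 in RSL3-R cells (adjusted p = 0.465).

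Of 16 interferon response genes, 13 passed the filter on low counts. In erastin-R cells 1 was higher and 9 were lower, and the median on the log2 scale was -0.50. In RSL3-R cells 5 were higher and 1 was lower (median 0.27), and in the direct comparison 9 passed, each higher in RSL3-R cells (median 0.72). OAS2, a sensor enzyme of double-stranded RNA, was at 9.60, 11.0 and 10.7 CPM in vehicle, 4.11, 2.93 and 2.86 CPM in erastin-R and 9.93, 8.39 and 11.2 CPM in RSL3-R libraries. It was lower in erastin-R cells (log2 fold change -1.66 ± 0.17, adjusted p = 2.29e-06) and had -0.08 ± 0.15 in RSL3-R cells (adjusted p = 0.677). IFIT2 and IFIT3, which bind viral RNA, were lower in erastin-R cells (log2 fold changes of -1.07 and -1.04, adjusted p = 7.13e-06 and 8.41e-07), and had 0.31 and 0.05 in RSL3-R cells (adjusted p = 0.0408 and 0.683). IFI44L was lower for erastin-R (-0.83 ± 0.18, adjusted p = 0.00139) and higher for RSL3-R (1.10 ± 0.16, adjusted p = 5.77e-05). The GTPase GBP1 was lower in both (log2 fold changes of -1.59 ± 0.13 and -0.91 ± 0.12, adjusted p = 2.58e-07 and 3.77e-05).

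Class I-like proteins present other ligands or flag stressed cells to natural killer cells. Of 14, 11 passed the filter, 2 higher and 3 lower in erastin-R cells and 3 higher and 4 lower in RSL3-R cells (3 in all without RSL3-R replicate 2). MR1, which presents vitamin B metabolites to MAIT cells with B2M as its partner, was at 9.36, 11.9 and 12.2 CPM in vehicle, 11.9, 11.2 and 10.6 CPM in erastin-R and 22.8, 23.9 and 23.6 CPM in RSL3-R libraries. It was higher in RSL3-R cells than in vehicle and in erastin-R cells (log2 fold changes of 1.07 ± 0.11 and 1.06 ± 0.11, adjusted p = 3.33e-06 and 5e-06), and in erastin-R cells it had 0.01 ± 0.12 (adjusted p = 0.926). RAET1E, a ligand of the activating receptor NKG2D, was lower in both treated groups (log2 fold changes of -1.84 ± 0.31 and -0.92 ± 0.28, adjusted p = 0.000213 and 0.0153). ULBP3, another NKG2D ligand, had -0.88 ± 0.37 and -1.03 ± 0.37 (adjusted p = 0.0575 and 0.0351), and AZGP1 had 0.33 ± 0.56 and 1.37 ± 0.50 (adjusted p = 0.637 and 0.0337). These last 3 genes were at under 3 CPM in every library.

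Genes that remove class I from the surface were read from a list of 5, of which 2 were higher and 2 lower in erastin-R cells, and 2 passed in RSL3-R cells, both lower. The RSL3-R count was 1 with DESeq2, with quantile normalization, with the replicate block and without any 1 vehicle library, RSL3-R replicate 1 or RSL3-R replicate 3. The ubiquitin ligase MARCH4 was at 5.13, 4.57 and 5.43 CPM in vehicle and 11.1, 10.6 and 9.97 CPM in erastin-R libraries, a log2 fold change of 1.06 ± 0.14 (adjusted p = 1.8e-05), with 0.34 ± 0.14 in RSL3-R cells (adjusted p = 0.0594). TMEM127 and WWP2, parts of a complex that sends class I to the lysosome, were lower in erastin-R cells (log2 fold changes of -0.94 and -0.87, adjusted p = 9.67e-08 and 1.01e-06). In RSL3-R cells they had -0.11 and -0.42 (adjusted p = 0.208 and 0.000603).

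Class II genes were low, as 6 of 12 passed the filter. In erastin-R cells 1 was higher and 3 lower (2 in all without vehicle replicate 3), and in RSL3-R cells 1 passed, as lower (3 in all with quantile normalization, and 2 with RLE factors, with only these 2 groups fitted and without erastin-R replicate 1, RSL3-R replicate 1 or RSL3-R replicate 3). CD74, the invariant chain of class II, was at 34.2, 34.2 and 35.7 CPM in vehicle, 16.8, 17.1 and 17.6 CPM in erastin-R and 37.9, 40.6 and 38.8 CPM in RSL3-R libraries (-1.02 ± 0.08, adjusted p = 1.24e-07, and 0.17 ± 0.07, adjusted p = 0.0627). CIITA, the class II transactivator and relative of NLRC5, was lower in both treated groups (log2 fold changes of -0.60 ± 0.14 and -1.28 ± 0.15, adjusted p = 0.00311 and 1.05e-05), while NLRC5 was higher in erastin-R cells. HLA-DPA1, at under 2 CPM, had -1.01 ± 0.39 and -0.83 ± 0.38 (adjusted p = 0.0391 and 0.0837).

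Of 5 other class I loci, most of them pseudogenes, 4 passed the filter, and their reads are the least sure because of shared sequence. HLA-L was higher for erastin-R (0.92 ± 0.21, adjusted p = 0.00209) and for RSL3-R (0.62 ± 0.22, adjusted p = 0.0286). The RSL3-R call was lost with DESeq2, with quantile normalization and without vehicle replicate 1 or 3 or RSL3-R replicate 2 or 3. HLA-J, at under 2 CPM, was higher in RSL3-R than in erastin-R cells (1.25 ± 0.40, adjusted p = 0.0197), a call that was lost with quantile normalization and without erastin-R replicate 2, RSL3-R replicate 1 or RSL3-R replicate 3. HLA-K had 0.32 ± 0.16 and 0.05 ± 0.16 (adjusted p = 0.106 and 0.823).

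The neighbours of the 7 MHC genes on chromosome 6 served as a local background. Of 142 protein-coding genes that start between HLA-F and TAPBP, 92 passed the filter. In erastin-R cells 31 were higher and 27 lower, and the median on the log2 scale was -0.007. In RSL3-R cells 15 were higher and 32 lower (median -0.13), and in the direct comparison 11 were higher and 34 lower (median -0.10). All of the 7 MHC genes but TAP1 were higher there. The neighbours take in genes of the lists above, such as PSMB8 and MICA. The medians of all genes tested were -0.004, 0.005 and -0.02.

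Over the 9 libraries, the genes whose log2 CPM relative to vehicle were nearest to those of HLA-B were TRIOBP, SEPHS2 and TCTN1, with root mean square differences of 0.048, 0.075 and 0.077. For B2M they were NKIRAS2 (0.041), PARP14 (0.042) and HSPA9 (0.048), and for TAP1 they were ZYX (0.049), AKT2 (0.050) and PHF13 (0.052). The search covered 12969 protein-coding genes. None of these 9 neighbours in pattern belongs to the class I genes. Among the class I genes themselves, the nearest pair was B2M and TAPBP (0.138), followed by HLA-B and HLA-C (0.155), and the farthest pair was HLA-E and TAP2 (1.16).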

How the data were processed

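The 9 genes and the gene lists were chosen with earlier results of these data known. Per the submitters' processing notes, reads were aligned with HISAT2 2.0.5 and counted with featureCounts 1.5.0-p3, from uniquely mapped reads in exons according to the methods. The authors deposited raw counts per gene for each library, together with FPKM made from them (scaled by gene length and library size), which serve here for levels between genes, shares and ratios. Identifiers, coordinates and lengths equalled those of GENCODE release 29 (GRCh38) for all 58172 identifiers compared.

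A quasi-likelihood model of edgeR 4.0.16 (R 4.3.3, with TMM factors and filterByExpr) was fitted to the counts, in 1 model of the 9 libraries with no covariate, and tested on simulated counts beforehand. P-values were adjusted by Benjamini-Hochberg over 16188 genes, and each SE was the log2 fold change over the root of its F value. The common dispersion gave a coefficient of variation of 8.56%. Depth was 15405102 to 17273464 counts. Conditions came from the treatment labels. Named from each list were the differentially expressed genes and, where fewer than 3, those with the smallest adjusted p against vehicle up to 3. Nearest patterns had the smallest root mean square difference of log2 CPM (prior count 2) from the vehicle mean. MARCH4 and MARCH9 were matched by identifier, since the tables hold dates for their symbols. The alternatives were DESeq2 1.42.0, RLE factors, limma 3.58.1 with quantile normalization, no filter, 2-group fits, the replicate number as a block, an unadjusted p, and each library left out. The study's other experiments were not analysed here. Promoters came from RefSeq (GRCh38.p14). Python 3.11.15 with matplotlib 3.10.9 drew the figures.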

Additional observations from a re-analysis of the deposited data

Results flagged for a closer look

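Of 100 genes checked, the 9 class I genes and the genes of the lists, 8 passed the test in opposite directions against vehicle in the 2 treated groups, where 3.94% of all 16188 genes did. Both comparisons share the vehicle libraries. Since the genes were picked for passing in opposite directions, the direct differences that follow (edgeR) are descriptions and no independent test. TAPBP (tapasin) had its lowest level in erastin-R and its highest in RSL3-R libraries, and RSL3-R exceeded erastin-R cells with a log2 fold change of 0.62 (adjusted p = 5.16e-06). The peptidase BLMH was the other way round, with -0.65 (adjusted p = 1.07e-05). Among transcription factors, RFXAP had 1.21 (adjusted p = 2.83e-05) and NFKB1, a subunit of NF-κB, had 0.55 (adjusted p = 1.47e-05). Among interferon response genes the values were 1.37 for IFIT2 (adjusted p = 1.07e-06), 0.90 for IFI44 (8.19e-06), 1.93 for IFI44L (8.97e-07) and 0.80 for GBP2 (4.89e-05), with vehicle between the treated groups for each.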

How the results depend on the processing

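Of 405 refits of the fold changes of the 9 genes, 389 kept the direction and the side of the threshold, as did 533 of 585 refits of the list counts within 1.5 times. The number of the 9 genes past the adjusted p was 6 to 9 in erastin-R, 4 to 5 in RSL3-R and 8 to 9 in the direct comparison when 1 library was left out. The differentially expressed genes in erastin-R cells numbered 1 to 2 when 1 library was left out and 1 (TAP2) with limma and quantile normalization; HLA-F then lay under the fold limit. NLRC5 in RSL3-R cells (-0.04) turned to 0.034 with quantile normalization and to 0.0082 and 0.011 without RSL3-R replicates 1 and 3, and lay at -0.10 to 0.011 when any 1 library was left out, never passing the test. The causes were not tested. Without erastin-R replicate 1, 9957 genes passed in erastin-R cells in place of 8735. With the replicate block 7, 4 and 9 of the 9 genes passed, as without it. The replicate numbers gave no sign of pairing: after removal of group means, the mean correlation across genes was -0.0021 over 9 pairs of libraries with the same number (-0.081 to 0.051) and 0.0011 over 18 other pairs. Depth limits HLA-F, at 27 to 98 counts, and the listed genes under 3 CPM. Sequence shared among heavy chains limits levels more than changes.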
